A study of Homo sapiens with 12 samples.

Results

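The genes described here are 31 listed genes of cholesterol and fatty acid synthesis that are controlled by sterol regulatory element-binding proteins (SREBPs), read from a table of 28278 genes. All 31 were found in the table, and 26 of them were among the 8813 genes with enough counts to be tested. They were measured by MARS-seq, a barcoded RNA-seq method that counts the 3′ ends of transcripts, in 4 lines of OCI-Ly7, a human diffuse large B cell lymphoma cell line. The lines carried EZH2 Y646N (the EZH2 mutant, 2 libraries), kmt2d-/- (the KMT2D mutant, 3 libraries), kmt2d-/- with EZH2 Y646N (the double mutant, 3 libraries), or neither change (wild type, 3 libraries). No line was treated, and all were grown in the same medium with 20% serum. EZH2 places the repressive trimethyl mark on lysine 27 of histone H3, and KMT2D methylates lysine 4 of the same histone, mainly at enhancers. The labels do not say how the lines were made, whether each was 1 clone, or whether replicates were separate cultures, so the tests reflect the spread between libraries, which may be technical.

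SREBP-1 and SREBP-2 are made as membrane proteins of the endoplasmic reticulum. When sterols are scarce, SCAP carries them to the Golgi, where they are cut, and the freed part enters the nucleus and switches on the genes of sterol and fatty acid synthesis. When sterols are plentiful, INSIG proteins hold SCAP back, and serum supplies cells with cholesterol from outside.

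Library totals ran from 1118710 to 3107871 counts, so that 3 counts were worth between 0.965 and 2.68 CPM, the unit of counts scaled to a common library size. Levels below are CPM after scaling by TMM factors, called normalised CPM. Across all tested genes, libraries of 1 line correlated at 0.960 to 0.983 on the log2 scale, and libraries of different lines at 0.874 to 0.971. All 8 B cell markers were counted in every library. Of markers of other cells, 3 of 7 for T and NK cells (CD2, CD3D and CD8A), 4 of 8 myeloid, 5 of 8 fibroblast and epithelial, and 6 of 8 hepatocyte and adipocyte markers were at 0 in all libraries, and each of those lists summed to at most 2.96 normalised CPM in any library. KMT2D had 41.1, 40.9 and 34.5 normalised CPM in the KMT2D mutant and 65.6, 39.3 and 33.7 in the double mutant, against 27.2, 44.2 and 29.1 in wild type. A 3′ count does not read a small edit elsewhere in a gene, so it checks neither this label nor the EZH2 point mutation.

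In the EZH2 mutant, 13 of the 26 tested genes differed from wild type at an adjusted p under 0.05, 11 lower and 2 higher. Over all tested genes, 32.3% were called in that comparison, 15.1% lower and 17.1% higher. In the double mutant, 10 of the 26 were called, and all 10 were lower, where 23.7% of all genes were called and 11.6% were lower. In the KMT2D mutant only ACSS2 was called, lower, where 7.66% of all genes were called and 4.48% were lower and 3.18% higher. Over all genes, calls of 2-fold or more were 882 lower and 419 higher in the EZH2 mutant. They were 114 and 139 in the KMT2D mutant, and 614 and 152 in the double mutant. The median log2 fold change of the 26 genes was -0.24 in the EZH2 mutant, -0.07 in the KMT2D mutant and, for the double mutant, -0.30, while the median of all tested genes was -0.039, 0.004 and -0.014. Summed over the 31 genes, the level was 3328 ± 284 normalised CPM in the EZH2 mutant (SD, n = 2), 3898 ± 144 in the KMT2D mutant (n = 3) and 3173 ± 157 in the double mutant (n = 3), against 4271 ± 116 in wild type (n = 3). The lowest wild-type sum, 4204, lay above the highest sum of any mutant library, 4061. Such a sum weighs abundant genes most, and SREBF2, FDPS and FASN were not called in the KMT2D mutant (adjusted p = 0.141, 0.413 and 0.448). Parts of the list differed. In the EZH2 mutant, late sterol enzymes summed to 672 ± 28 normalised CPM against 598 ± 36 in wild type. Its fatty acid chain enzymes summed to 555 ± 89 against 446.5 ± 67, and all other parts were lower than in wild type. In bulk samples, fewer cells that express a gene and less RNA per cell cannot be told apart.

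**Figure D1:**
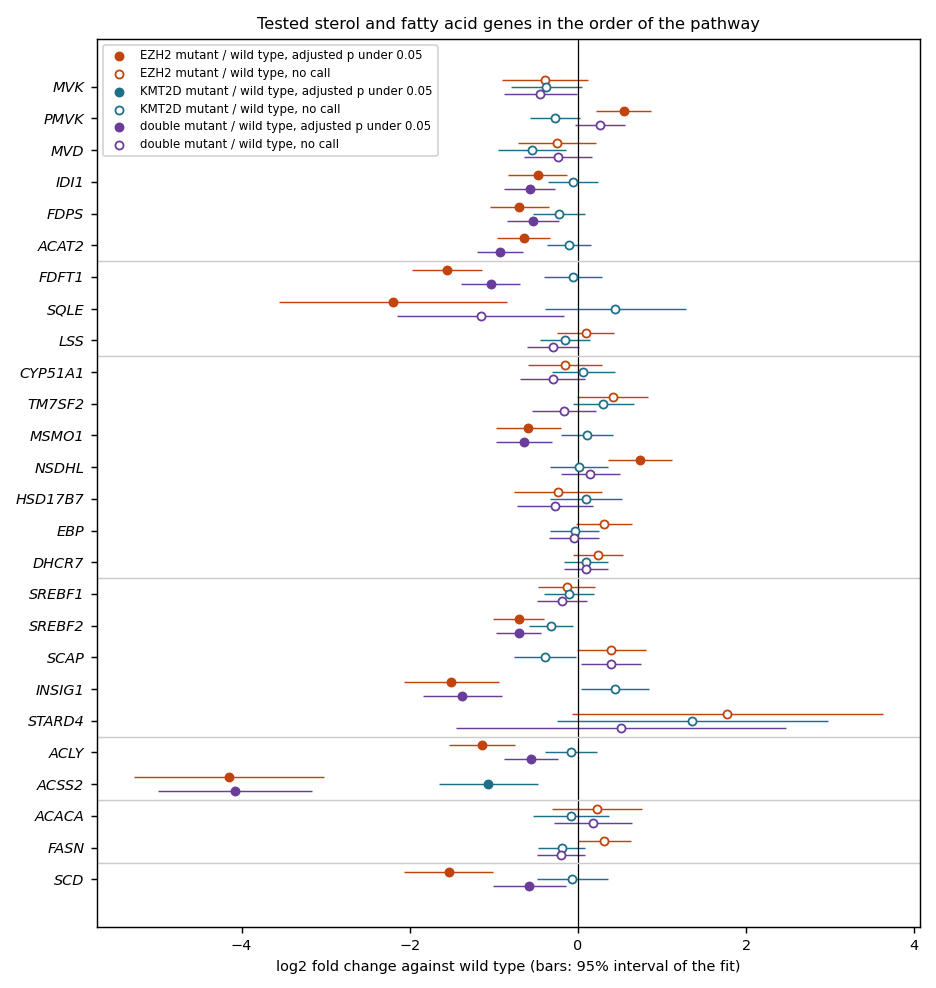
Log2 fold change of each of the 26 tested genes against wild type (x axis), with 95% intervals of the fit as bars, for the EZH2 mutant, the KMT2D mutant and the double mutant, with filled points at an adjusted p under 0.05. Genes run down the page in the order of the pathway, with grey lines between mevalonate enzymes, squalene and lanosterol enzymes, late sterol enzymes, regulators, acetyl-CoA enzymes, fatty acid chain enzymes and the desaturase. The points farthest to the left are ACSS2 at -4.15 and -4.08 in the lines with mutant EZH2.

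Among the regulators, SREBF2 and INSIG1 were lower in both lines with mutant EZH2, and SREBF1 was called in none. SREBF2, which encodes SREBP-2, the main activator of sterol genes, had 353 and 292 normalised CPM in the EZH2 mutant, 384, 473 and 408 in the KMT2D mutant and 300, 370 and 299 in the double mutant, against 538, 520 and 518 in wild type. Every mutant library lay below every wild-type library. Its log2 fold change was -0.71 ± 0.15 in the EZH2 mutant (SE, adjusted p = 0.00119) and -0.70 ± 0.13 in the double mutant (adjusted p = 0.000556). In the KMT2D mutant the estimate was -0.32, with an adjusted p of 0.141.

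INSIG1 encodes the sterol-dependent retention partner of SCAP, and its gene is itself a target of SREBPs. It had 16.4 and 26.3 normalised CPM in the EZH2 mutant, 102, 71.8 and 83.5 in the KMT2D mutant and 24.2, 21.9 and 27.3 in the double mutant, against 44.7, 64.3 and 80.5 in wild type. The 5 libraries with mutant EZH2 were lower than the other 6. INSIG1 was 2.84-fold lower in the EZH2 mutant (log2 -1.50 ± 0.27, adjusted p = 0.000381) and 2.59-fold lower in the double mutant (log2 -1.37 ± 0.22, adjusted p = 0.000223) than in wild type. Against the KMT2D mutant, the double mutant was 3.52-fold lower (adjusted p = 4.26e-06).

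SREBF1, which encodes the SREBP-1 isoforms that favour fatty acid genes, had 222 and 162 normalised CPM in the EZH2 mutant, 188, 208 and 186 in the KMT2D mutant and 164, 221 and 166 in the double mutant, against 224, 211 and 193 in wild type. The groups overlapped, and the 95% interval of its log2 fold change was -0.48 to 0.21 in the EZH2 mutant and -0.49 to 0.11 in the double mutant. SREBF1 overlaps RAI1 on the opposite strand, which had 48.3 to 67.1 normalised CPM over all libraries. Whether the counting used strand is not given, and the part of RAI1 in the SREBF1 count was not tested. SCAP, the escort of SREBPs, had 144 and 97.8 normalised CPM in the EZH2 mutant, 63.7, 81.9 and 63.6 in the KMT2D mutant and 114, 125 and 118 in the double mutant, against 104, 70.0 and 98.9 in wild type. It passed no test against wild type, but was higher in the double mutant than in the KMT2D mutant (log2 0.79 ± 0.18, adjusted p = 0.00154). In the EZH2 mutant against wild type, the log2 estimate of SCAP was 0.67 without EZH2 mutant replicate 2 and 0.13 without replicate 1. STARD4, a sterol carrier protein, was tested on few counts, 12 in the EZH2 mutant, 22 in the KMT2D mutant and, for the double mutant, 8, against 8 in wild type, and was called in no comparison.

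**Figure D2:**
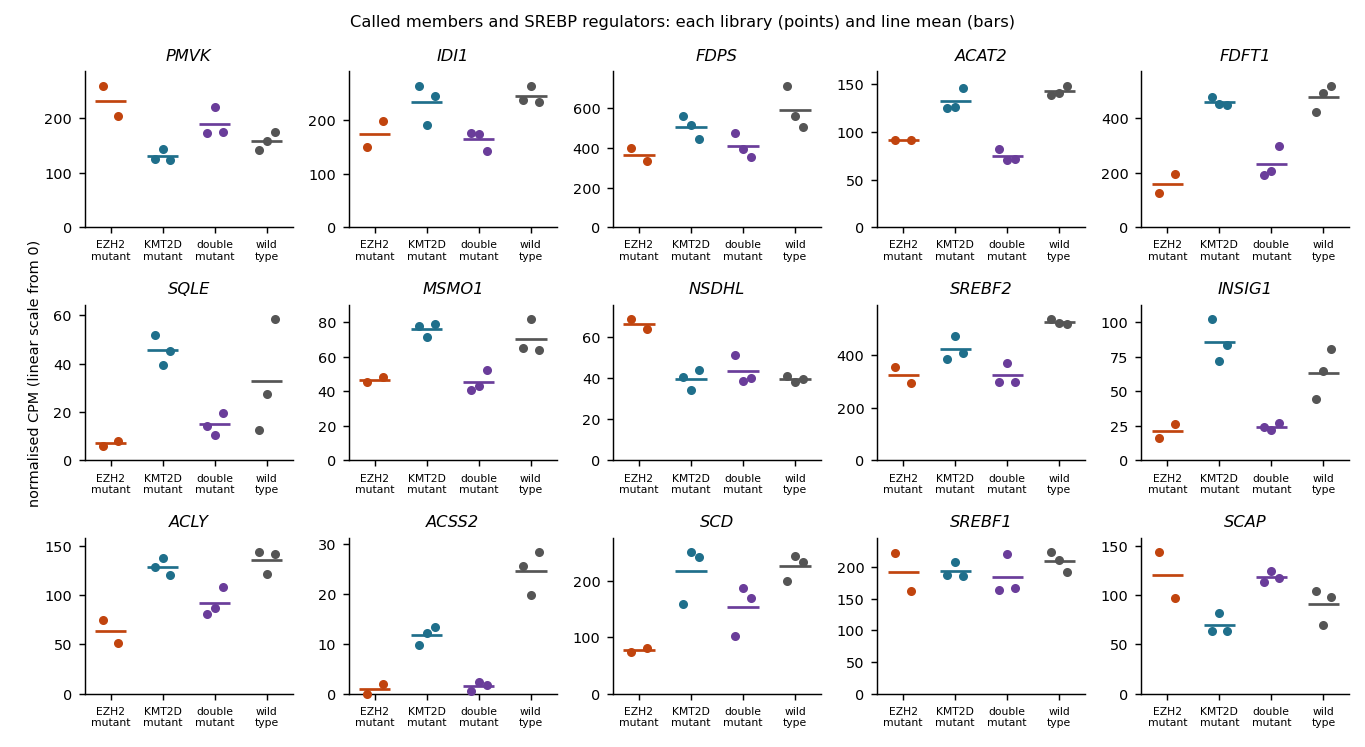
Normalised CPM (y axis, from 0) of the 13 genes called in at least 1 mutant line against wild type, and of SREBF1 and SCAP, with 1 point per library and a bar at each line's mean (2 EZH2 mutant, 3 KMT2D mutant, 3 double mutant and 3 wild-type libraries). ACSS2 shows 9.75 to 13.4 in the KMT2D mutant, 0 to 2.27 over the lines with mutant EZH2, and 19.7 to 28.4 in wild type.

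SREBPs bind short sterol regulatory elements, often beside CCAAT boxes, which bind the cofactor NF-Y. RefSeq promoter windows (GRCh38.p14, 250 bases before to 50 after a start, 300 in all) were available for 27 of the 31 genes, 37 windows in total. ACAT2, FDFT1, SQLE and FASN had none. The strict element TCACNCCAC was found on either strand in 1 of the 37 windows, that of SREBF2, at -133 from the start, against 1.13% of all 35116 windows. CCAAT was in 25 of the 37 windows, against 34.6% of all windows and 35.9% of those of tested genes. The E box CACGTG was in 5 of the 37, those of INSIG1, LSS, SC5D and SCAP, against 7.26% and 10.3%. Windows of the same gene can overlap, so a site can be counted more than once, as in SC5D and ACLY. Matches of CCAAT on opposite strands can overlap, and a match is a description of the letters only. Windows of 4 genes that were lower in both lines with mutant EZH2, and of NSDHL, which was higher in the EZH2 mutant, are shown so that their motifs can be compared. Each is 5′ to 3′ on the gene's strand, with matches to any of the 3 motifs in capitals.
SREBF2 (chr22:41832855-41833154, plus strand): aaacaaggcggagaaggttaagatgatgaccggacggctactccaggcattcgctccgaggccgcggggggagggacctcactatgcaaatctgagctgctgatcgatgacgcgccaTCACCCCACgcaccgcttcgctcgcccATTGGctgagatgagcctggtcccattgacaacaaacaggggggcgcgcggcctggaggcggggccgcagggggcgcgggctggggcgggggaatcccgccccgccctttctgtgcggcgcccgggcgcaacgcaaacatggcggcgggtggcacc
INSIG1 (chr7:155297628-155297927, plus strand): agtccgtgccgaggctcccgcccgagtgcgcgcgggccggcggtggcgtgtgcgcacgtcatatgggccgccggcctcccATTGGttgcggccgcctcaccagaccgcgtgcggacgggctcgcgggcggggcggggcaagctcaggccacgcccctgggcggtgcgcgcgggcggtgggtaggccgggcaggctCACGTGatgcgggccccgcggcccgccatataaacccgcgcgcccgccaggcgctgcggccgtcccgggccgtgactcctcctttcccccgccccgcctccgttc
SCD (chr10:100346983-100347282, plus strand): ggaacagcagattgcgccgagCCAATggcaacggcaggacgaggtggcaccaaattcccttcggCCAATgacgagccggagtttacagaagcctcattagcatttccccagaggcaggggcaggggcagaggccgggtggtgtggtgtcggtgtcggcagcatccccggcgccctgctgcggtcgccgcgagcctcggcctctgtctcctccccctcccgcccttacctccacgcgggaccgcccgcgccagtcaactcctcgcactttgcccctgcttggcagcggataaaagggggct
ACLY (chr17:41918902-41919201, minus strand): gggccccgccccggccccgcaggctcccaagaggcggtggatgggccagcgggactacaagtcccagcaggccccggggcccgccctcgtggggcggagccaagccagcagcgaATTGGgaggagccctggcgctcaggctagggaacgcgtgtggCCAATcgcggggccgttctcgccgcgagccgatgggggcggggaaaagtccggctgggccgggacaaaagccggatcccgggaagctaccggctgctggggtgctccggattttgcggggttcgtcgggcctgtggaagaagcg
NSDHL (chrX:152830813-152831112, plus strand): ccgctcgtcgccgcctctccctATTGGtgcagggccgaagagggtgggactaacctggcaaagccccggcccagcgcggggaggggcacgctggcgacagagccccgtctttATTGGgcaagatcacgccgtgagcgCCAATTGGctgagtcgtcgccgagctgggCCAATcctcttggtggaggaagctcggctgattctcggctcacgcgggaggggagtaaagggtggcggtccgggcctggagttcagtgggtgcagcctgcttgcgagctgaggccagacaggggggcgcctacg
NSDHL holds CCAAT on either strand at -228, -138, -113, -110 and -84, and SCD holds it at -229 and -186. INSIG1 holds it at -170 with an E box at -55. PMVK, which was also higher in the EZH2 mutant, has 1 window, with no CCAAT on either strand.

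Mevalonate is built from acetyl-CoA and turned into the isoprenoid units of all sterols. Of the 7 listed enzymes of this stretch, 6 were tested, and 3 were lower and 1 higher in the EZH2 mutant, while 3 were lower in the double mutant. ACAT2, the cytosolic acetoacetyl-CoA thiolase, had 91.2 and 91.3 normalised CPM in the EZH2 mutant, 125, 126 and 146 in the KMT2D mutant and 82.4, 71.0 and 71.5 in the double mutant, against 139, 141 and 149 in wild type. The libraries with mutant EZH2 did not overlap the rest. It was 1.57-fold lower in the EZH2 mutant (log2 -0.65 ± 0.15, adjusted p = 0.00315) and 1.90-fold lower in the double mutant (log2 -0.93 ± 0.13, adjusted p = 5.41e-05). ACAT2 overlaps TCP1 on the opposite strand, and whether the counting used strand is not given in the sources used here. TCP1 was called in none of the comparisons against wild type.

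FDPS, which makes farnesyl diphosphate, had 397 and 334 normalised CPM in the EZH2 mutant, 560, 514 and 443 in the KMT2D mutant and 477, 395 and 356 in the double mutant, against 713, 558 and 505 in wild type. Both lines with mutant EZH2 lay below wild type without overlap, at log2 -0.70 ± 0.17 (adjusted p = 0.00422) in the EZH2 mutant and -0.53 ± 0.15 (adjusted p = 0.0134) in the double mutant. The call was lost without EZH2 mutant replicate 2 in the first (adjusted p = 0.0503), and without wild-type replicate 1 or double mutant replicate 2 or 3 in the second (0.0529 to 0.0717). FDPS has 8 annotated pseudogenes, whose reads its count could share. IDI1, the isopentenyl diphosphate isomerase, had 150 and 199 normalised CPM in the EZH2 mutant, 265, 191 and 245 in the KMT2D mutant and 177, 174 and 143 in the double mutant, against 238, 265 and 233 in wild type. Its log2 fold change was -0.48 ± 0.17 in the EZH2 mutant (adjusted p = 0.0332) and -0.57 ± 0.15 in the double mutant (adjusted p = 0.00779). The call in the EZH2 mutant was lost without wild-type replicate 2 (adjusted p = 0.0582) or EZH2 mutant replicate 1 (0.321, at log2 -0.28).

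PMVK, the phosphomevalonate kinase, went the other way. It had 259 and 204 normalised CPM in the EZH2 mutant, 125, 144 and 123 in the KMT2D mutant and 173, 221 and 175 in the double mutant, against 141, 157 and 174 in wild type. It was higher in the EZH2 mutant than in wild type (log2 0.54 ± 0.16, adjusted p = 0.0128) and higher in the double mutant than in the KMT2D mutant (log2 0.54 ± 0.14, adjusted p = 0.00542). The first call was lost with upper-quartile scaling (adjusted p = 0.0583) and without EZH2 mutant replicate 1 (0.141). MVK and MVD, the kinase and decarboxylase on either side of PMVK, were called in no comparison, with estimates against wild type from -0.55 to -0.24, although MVK was called lower in both lines with mutant EZH2 without wild-type replicate 2, and in the double mutant with no filter, and MVD in the KMT2D mutant with no filter or with only the groups compared. HMGCS1, the hydroxymethylglutaryl-CoA synthase, had too few counts to be tested, 1 in the EZH2 mutant, 1 in the KMT2D mutant and, for the double mutant, 0, against 10 in wild type. With no filter, HMGCS1 was called lower in the double mutant than in wild type.

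Squalene synthase and squalene epoxidase, the first enzymes committed to sterols, showed large differences. FDFT1, the squalene synthase, had 125 and 195 normalised CPM in the EZH2 mutant, 478, 453 and 447 in the KMT2D mutant and 191, 207 and 299 in the double mutant, against 423, 492 and 519 in wild type. The 5 libraries with mutant EZH2 all lay below the other 6. FDFT1 was 2.94-fold lower in the EZH2 mutant (log2 -1.56 ± 0.20, adjusted p = 2.22e-05) and 2.06-fold lower in the double mutant (log2 -1.04 ± 0.17, adjusted p = 0.000246).

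SQLE, the squalene epoxidase, had 6.15 and 7.94 normalised CPM in the EZH2 mutant, 51.8, 39.6 and 45.2 in the KMT2D mutant and 14.3, 10.6 and 19.8 in the double mutant, against 12.4, 27.5 and 58.7 in wild type. Wild type was the most spread of the lines, and its lowest library overlapped the double mutant. SQLE was 4.59-fold lower in the EZH2 mutant (log2 -2.20 ± 0.62, adjusted p = 0.0184), was not called in the double mutant against wild type (log2 -1.16 ± 0.45, adjusted p = 0.0871), and stood 3.04-fold lower in the double mutant than in the KMT2D mutant (adjusted p = 0.0129). The call in the EZH2 mutant was lost with limma-voom (adjusted p = 0.0954) and without either EZH2 mutant library (0.137 and 0.147), and that against the KMT2D mutant without double mutant replicate 1 or 2 (0.0519 and 0.0531). With DESeq2, with no filter or without wild-type replicate 1, SQLE was also called lower in the double mutant than in wild type, and without wild-type replicate 3 it was called higher in the KMT2D mutant. LSS, the lanosterol synthase that follows, was called in no comparison (log2 0.09 ± 0.16 in the EZH2 mutant and -0.30 ± 0.15 in the double mutant), except lower in the double mutant with upper-quartile scaling.

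The late sterol enzymes turn lanosterol into cholesterol, and most of them did not pass the test. Of 8 listed, 7 were tested, 1 was lower and 1 higher in the EZH2 mutant, and 1 was lower in the double mutant. MSMO1, the sterol C4-methyl oxidase, had 45.1 and 48.2 normalised CPM in the EZH2 mutant, 77.7, 71.2 and 78.9 in the KMT2D mutant and 40.5, 43.1 and 52.3 in the double mutant, against 65.1, 81.9 and 64.0 in wild type. Its libraries with mutant EZH2 were all below the others, at log2 -0.59 ± 0.19 in the EZH2 mutant (adjusted p = 0.0203) and -0.64 ± 0.16 in the double mutant (adjusted p = 0.00693). In the EZH2 mutant the adjusted p lay between 0.0582 and 0.109 without wild-type replicate 2 or either EZH2 mutant library.

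NSDHL, which acts after MSMO1 in the removal of the same methyl groups, had 68.6 and 63.5 normalised CPM in the EZH2 mutant, 40.2, 34.2 and 43.7 in the KMT2D mutant and 50.8, 38.5 and 40.1 in the double mutant, against 40.7, 38.1 and 39.5 in wild type. Both EZH2 mutant libraries stood above the 9 others. NSDHL was 1.67-fold higher in the EZH2 mutant than in wild type (log2 0.74 ± 0.18, adjusted p = 0.00479), while the double mutant was not called (log2 0.14 ± 0.17, adjusted p = 0.574). The change attributed to mutant EZH2 was not shown to depend on KMT2D for NSDHL (interaction log2 -0.61 ± 0.25, adjusted p = 0.221). CYP51A1, TM7SF2, HSD17B7, EBP and DHCR7 were called in no comparison with wild type, with estimates from -0.30 to 0.41, except that TM7SF2 was called higher in the EZH2 mutant without replicate 2. SC5D was too low to test, with 0 counts in the EZH2 mutant, 4 in the KMT2D mutant and, for the double mutant, 4, against 3 in wild type.

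The enzymes that supply cytosolic acetyl-CoA, the building block of both pathways, were lower in both lines with mutant EZH2. ACLY, which splits citrate, had 74.8 and 51.6 normalised CPM in the EZH2 mutant, 129, 138 and 121 in the KMT2D mutant and 81.4, 87.6 and 108 in the double mutant, against 144, 122 and 143 in wild type. The libraries with mutant EZH2 all lay below the others. ACLY was 2.21-fold lower in the EZH2 mutant (log2 -1.14 ± 0.19, adjusted p = 0.000162) and 1.47-fold lower in the double mutant (log2 -0.56 ± 0.15, adjusted p = 0.0122). Without double mutant replicate 1 or 2 the adjusted p in the double mutant was 0.0756 or 0.0522.

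ACSS2, which makes acetyl-CoA from acetate, was the only gene of the list called in all 3 mutant lines. It had 0 and 1.99 normalised CPM in the EZH2 mutant, 9.75, 12.1 and 13.4 in the KMT2D mutant and 0.493, 2.27 and 1.74 in the double mutant, against 25.5, 19.7 and 28.4 in wild type. The KMT2D mutant lay between wild type and the lines with mutant EZH2, with no overlap. From summed counts, 4 in the EZH2 mutant against 177 in wild type, ACSS2 was 18.1-fold lower (95% counting interval 6.94 to 67.1). With 7 counts in the double mutant it was 17.5-fold lower than in wild type (8.33 to 44.2). The fitted log2 fold changes were -4.15 ± 0.54 in the EZH2 mutant (adjusted p = 1.84e-05), -1.07 ± 0.28 in the KMT2D mutant (adjusted p = 0.0228) and -4.08 ± 0.44 in the double mutant (adjusted p = 2.08e-06). The value in the EZH2 mutant was -3.56 without replicate 1, the library at 0, and -8.67 without replicate 2, where the line is left with 0 counts and the fitted value is no bound. The call in the KMT2D mutant was lost under 5 of 14 alternatives, DESeq2 and the omission of wild-type replicate 1 or 3 or KMT2D mutant replicate 1 or 3, with adjusted p from 0.0569 to 0.168.

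ACSS2 lies at chr20:34872146-34927962 on the plus strand (GENCODE v29, GRCh38), and genes next to it were lower too. GGT7, a gamma-glutamyltransferase family gene on the opposite strand whose start overlaps that of ACSS2 by 715 bases, had 1.02 and 0.496 normalised CPM in the EZH2 mutant, 0.914, 2.01 and 1.15 in the KMT2D mutant and 0.493, 0 and 0.581 in the double mutant, against 6.22, 8.50 and 6.13 in wild type. Every mutant library was below wild type. Summed counts of 2 in the EZH2 mutant and 2 in the double mutant, against 52 in wild type, gave 10.6-fold (2.80 to 90.1) and 18.0-fold (4.74 to 153) lower levels, and 9 counts in the KMT2D mutant gave 5.83-fold (2.85 to 13.5). In the fit its adjusted p was 0.00246, 0.00292 and 0.000285 in the EZH2, KMT2D and double mutants, and 0.0729 in the EZH2 mutant without replicate 2.

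GSS, the glutathione synthetase on the other side of ACSS2 with its 3′ end 470 bases away, was called lower in all 3 mutant lines. It had 91.2 and 78.9 normalised CPM in the EZH2 mutant, 91.1, 115 and 83.1 in the KMT2D mutant and 148, 121 and 87.2 in the double mutant, against 158, 198 and 212 in wild type. Its log2 fold changes were -1.17 ± 0.21, -0.99 ± 0.18 and -0.67 ± 0.18 (adjusted p = 0.000438, 0.00136 and 0.00935). TP53INP2, farther out, was lower in the EZH2 mutant only (log2 -1.95 ± 0.51, adjusted p = 0.00661, and 0.156 without EZH2 mutant replicate 2), with estimates of 0.25 in the KMT2D mutant and, for the double mutant, -0.58. NCOA6, TRPC4AP and MMP24OS were called in no mutant line. GGT7 and ACSS2 overlap at their starts, while MARS-seq counts 3′ ends, and GSS does not overlap ACSS2. The part of these neighbours in the ACSS2 count was not tested.

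**Figure D3:**
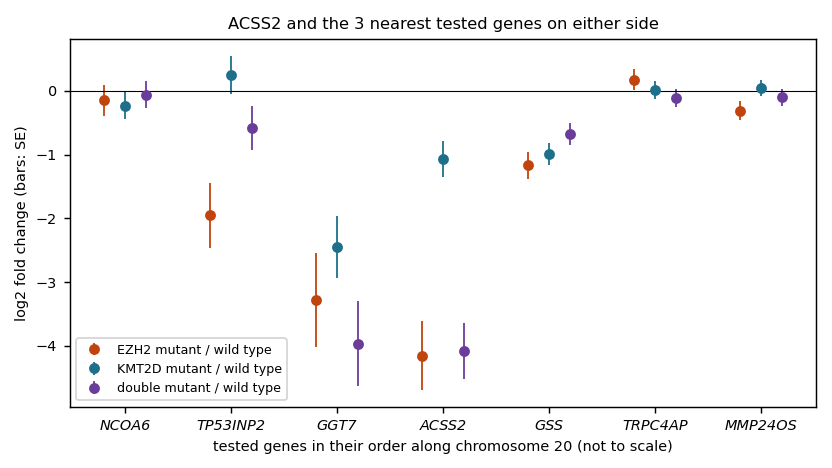
Log2 fold change against wild type (y axis, bars are SE of the fit) of ACSS2 and the 3 nearest tested genes on either side, in their order along chromosome 20, for the EZH2 mutant, the KMT2D mutant and the double mutant. GGT7, ACSS2 and GSS are below 0 in all 3 lines, and NCOA6, TRPC4AP and MMP24OS lie between -0.31 and 0.18.

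Around SQLE, the other gene of the list with a called change of more than 4-fold, 1 of the 6 neighbours tested was higher, 1 was lower and 4 were not called in the EZH2 mutant. NDUFB9, a subunit of respiratory complex I, was higher in the EZH2 mutant (log2 1.02 ± 0.14, adjusted p = 3.53e-05) and in the double mutant (0.53 ± 0.13, adjusted p = 0.00594). TRIB1, a pseudokinase gene, was lower in the EZH2 mutant, as SQLE was (log2 -1.91 ± 0.46, adjusted p = 0.00446). It had 3.07 and 7.45 normalised CPM there, against 11.9, 28.9 and 24.2 in wild type. WDYHV1, TRMT12, WASHC5 and NSMCE2 were called in no mutant line. The calls of NDUFB9 and TRIB1 were not put through the alternatives.

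The enzymes that build the fatty acid chain differed from SCD, which puts the first double bond into it. SCD, the stearoyl-CoA desaturase, had 73.7 and 81.4 normalised CPM in the EZH2 mutant, 159, 251 and 241 in the KMT2D mutant and 103, 187 and 169 in the double mutant, against 200, 244 and 234 in wild type. The EZH2 mutant lay below all other libraries. SCD was 2.90-fold lower in the EZH2 mutant (log2 -1.54 ± 0.25, adjusted p = 0.000318) and 1.49-fold lower in the double mutant (log2 -0.58 ± 0.20, adjusted p = 0.0496). The call in the double mutant was lost without wild-type replicate 2 or 3 or double mutant replicate 1 (adjusted p from 0.106 to 0.186).

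FASN, the fatty acid synthase, had 598 and 469 normalised CPM in the EZH2 mutant, 349, 405 and 370 in the KMT2D mutant and 400, 372 and 342 in the double mutant, against 506, 389 and 389 in wild type. The groups overlapped and no comparison was called (log2 0.32 ± 0.15 in the EZH2 mutant, 95% interval 0.00 to 0.63, adjusted p = 0.113). It was called higher in the EZH2 mutant than in wild type without wild-type replicate 1 or EZH2 mutant replicate 2, and lower in the double mutant than in the EZH2 mutant with no filter or without EZH2 mutant replicate 2. ACACA, the acetyl-CoA carboxylase that feeds it, ranged from 12.8 to 21.8 normalised CPM over all libraries and was called in no comparison. ELOVL6, an elongase, had 4 counts in the EZH2 mutant, 20 in the KMT2D mutant and, for the double mutant, 3, against 8 in wild type. FADS2, a desaturase of polyunsaturated fatty acids, had 3, 11 and 9 counts in those mutant lines, against 10 in wild type. FADS1, its partner, was at 0 in all 11 libraries, which allows up to 0.965 CPM in the deepest.

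Lines with and without mutant EZH2 could also be compared without KMT2D, in the double mutant against the KMT2D mutant. No library is shared with the EZH2 mutant and wild type. The double mutant and the KMT2D mutant may differ in more than EZH2. On the long arm of chromosome 19, their median log2 fold changes against wild type were 0.13 and -0.72. The part of such differences in these calls was not tested. In the double mutant against the KMT2D mutant, 12 of the 26 genes were called, 10 lower and 2 higher. Over all genes 41.9% were called, 20.8% lower and 21.2% higher. Called in the same direction in both were 10 genes, PMVK higher and IDI1, ACAT2, FDFT1, SQLE, MSMO1, SREBF2, INSIG1, ACLY and ACSS2 lower. That is 76.9% of the calls in the EZH2 mutant and 83.3% of those in the double mutant against the KMT2D mutant, where over all genes the shares were 66.8% and 51.4%. Of the rest called in the EZH2 mutant, SCD, FDPS and NSDHL were not called here (adjusted p = 0.0547, 0.105 and 0.565). SCD was called lower with RLE or upper-quartile scaling, no filter, a mean of at least 5 CPM, DESeq2 or the replicate block. FDPS was called lower with upper-quartile scaling, no filter, a mean of at least 5 CPM, the replicate block or only the groups compared. ACSS2 was 8.34-fold lower in the double mutant than in the KMT2D mutant by summed counts (95% counting interval 3.88 to 21.4). TM7SF2, the sterol C14-reductase, was called lower only there among the 6 comparisons (log2 -0.47 ± 0.18, adjusted p = 0.0454), with 53.8, 74.8 and 49.4 normalised CPM in the double mutant, against 79.2, 96.7 and 69.7 in the KMT2D mutant, which overlap. It was not called with DESeq2 or without KMT2D mutant replicate 1 or 2 or double mutant replicate 1 or 3 (adjusted p from 0.0531 to 0.141).

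**Figure D4:**
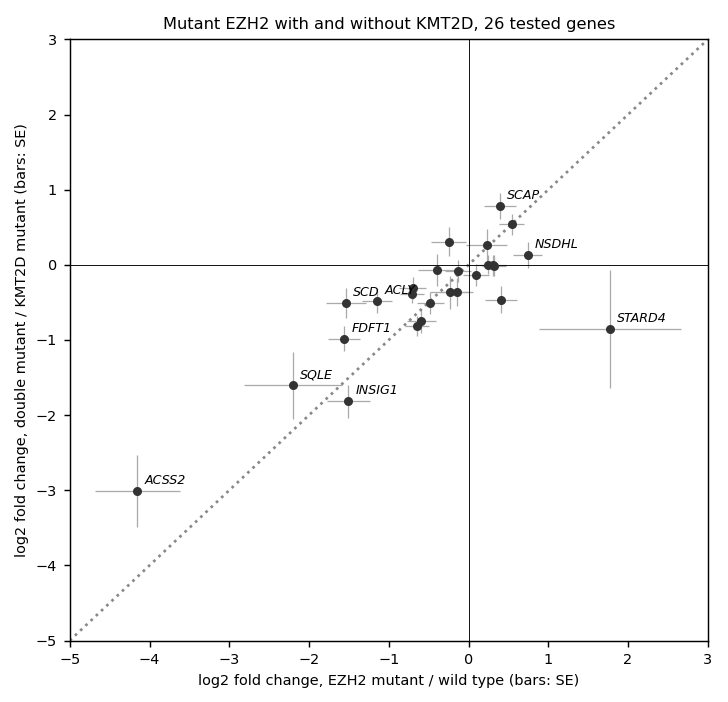
Log2 fold change of the 26 tested genes for mutant EZH2 without KMT2D (double mutant over KMT2D mutant, y axis) against that with KMT2D (EZH2 mutant over wild type, x axis), with SE bars and a dotted line of equal change. ACSS2, SQLE, INSIG1 and FDFT1 are below -0.9 on both axes, and SCD lies at -1.54 on the x axis and -0.51 on the y axis.

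The loss of KMT2D next to mutant EZH2, in the double mutant against the EZH2 mutant, was called by edgeR for 0 of the 26 genes, where 2.29% of all genes were called, 1.58% lower and 0.715% higher. At an unadjusted p under 0.05 there were 8, FASN (0.00259), SCD (0.00154), NSDHL (0.00462), ACLY (0.00604), TM7SF2 (0.0117), FDFT1 (0.017), LSS (0.03) and EBP (0.0397), and 15.3% of all tested genes passed that threshold. DESeq2 called 1 gene, SCD, higher. SCD was 1.94-fold higher in the double mutant than in the EZH2 mutant (log2 0.96 ± 0.25, adjusted p = 0.0589), and was also called with no filter, with the replicate block and without double mutant replicate 1. The interaction, which asks whether both mutations together differ from the sum of their separate log2 changes, called none of the 26, where 3.02% of all genes were called, 1.52% lower and 1.5% higher. At an unadjusted p under 0.05 there were 6, where 15.7% of all tested genes passed, and DESeq2 called 0. The smallest adjusted p were those of TM7SF2 (log2 -0.88 ± 0.27, 0.0919) and SCD (1.03 ± 0.32, 0.104), and their intervals were -1.44 to -0.31 and 0.35 to 1.70. Both were called with no filter, TM7SF2 also without double mutant replicate 2, and SCD also with the replicate block and without double mutant replicate 1. With only 2 EZH2 mutant libraries, an interaction that misses the threshold does not show that the effects add up.

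Other genes of the same metabolism were grouped into lists, whose counts stand beside shares over all tested genes of 15.1% lower and 17.1% higher in the EZH2 mutant, 4.48% lower and 3.18% higher in the KMT2D mutant and, for the double mutant, 11.6% lower and 12.1% higher. Of 14 tested genes of fatty acid synthesis and desaturation outside the 31, 7 were lower and 3 higher in the EZH2 mutant, 1 was lower in the KMT2D mutant, and 4 were lower and 2 higher in the double mutant. AACS, which makes acetoacetyl-CoA from ketone bodies for lipid synthesis, had 10.2 and 5.46 normalised CPM in the EZH2 mutant, with 14.8, 14.4 and 11.6 in the double mutant, against 34.5, 33.0 and 31.1 in wild type (log2 -2.18 and -1.27, adjusted p = 2.7e-05 and 0.000378). ELOVL5, an elongase of polyunsaturated chains, was lower in the EZH2 mutant (log2 -1.20, adjusted p = 0.000263) and in the double mutant (-0.96, adjusted p = 0.00051). FADS3, a desaturase family gene, was lower in all 3 lines, at log2 -0.54 in the EZH2 mutant, -0.45 in the KMT2D mutant and, for the double mutant, -1.12. MCAT, the malonyltransferase of mitochondrial fatty acid synthesis, was higher in the EZH2 mutant (log2 0.98, adjusted p = 0.000526) and in the double mutant (0.53, adjusted p = 0.0243).

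In the branch that leads from farnesyl diphosphate to protein prenylation and dolichol, 3 of 10 tested genes were higher and 1 lower in the EZH2 mutant, and 1 was higher in the double mutant. ICMT, which methylates prenylated proteins, had 98.3 and 78.4 normalised CPM in the EZH2 mutant, with 71.6, 62.7 and 66.3 in the double mutant, against 33.9, 44.5 and 32.6 in wild type. RCE1, the prenyl-protein protease, and DOLK, the dolichol kinase, were higher in the EZH2 mutant (log2 0.67 and 0.84, adjusted p = 0.0321 and 0.0443). FNTA, the shared subunit of the farnesyl and geranylgeranyl transferases, was lower there (log2 -0.88, adjusted p = 0.034).

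Among 9 tested genes that move, cut or degrade the SREBP machinery, 2 were higher in the EZH2 mutant and 3 in the double mutant, and none was lower, where 17.1% and 12.1% of all genes were called higher. SEC24C, a coat protein of vesicles that leave the endoplasmic reticulum, was higher in both (log2 0.70 and 0.38, adjusted p = 0.000695 and 0.0304), as was the ubiquitin-conjugating enzyme UBE2G2 (0.55 and 0.47, adjusted p = 0.0263 and 0.0455). RNF145, a sterol-responsive ubiquitin ligase, was higher in the double mutant (log2 0.87, adjusted p = 0.0202). Of 11 tested genes of sterol uptake and transport, 1 was lower and 1 higher in the EZH2 mutant. NPC2, which unloads cholesterol from lysosomes, was lower in the EZH2 mutant and the double mutant (log2 -0.77 and -0.58, adjusted p = 0.00293 and 0.00841), and SCARB1, a lipoprotein receptor, was higher in both (0.56 and 0.57, adjusted p = 0.0127 and 0.00673).

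ABCG1, a cholesterol exporter and target of the liver X receptors, was called higher in all 3 mutant lines. It had 68.6 and 51.6 normalised CPM in the EZH2 mutant, 35.6, 43.0 and 36.8 in the KMT2D mutant and 50.3, 44.6 and 55.2 in the double mutant, against 24.9, 23.1 and 19.9 in wild type, and every mutant library was above wild type. Its log2 fold changes were 1.39 (adjusted p = 5.51e-05), 0.76 (0.012) and 1.15 (0.000153) in the EZH2, KMT2D and double mutants. Of the 8 tested genes in this list, 1 was higher in the EZH2 mutant, 1 higher and 2 lower in the KMT2D mutant, and 2 higher in the double mutant. LPCAT3, a phospholipid acyltransferase, was higher in the double mutant (log2 0.62, adjusted p = 0.0385). NR1H2, which encodes liver X receptor beta, and APOE, a lipoprotein component, were lower in the KMT2D mutant (log2 -0.94 and -1.62, adjusted p = 0.00122 and 0.0142). Both map to the long arm of chromosome 19, and there the median log2 fold change of 373 tested genes was -0.72 in the KMT2D mutant and 189 were called lower. In the double mutant that median was 0.13, with 33 called lower and 55 higher. The part of that arm in these values was not tested, and none of the 31 genes lies on it.

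In fatty acid oxidation, 3 of 16 tested genes were lower and 2 higher in the EZH2 mutant, 2 lower and 1 higher in the KMT2D mutant, and 2 lower and 1 higher in the double mutant, where 32.3%, 7.66% and 23.7% of all genes were called in either direction. CPT1A, which admits fatty acids to mitochondria, had 3 counts in the EZH2 mutant against 45 in wild type, 6.13-fold lower (95% counting interval 1.97 to 30.8), and was lower in the double mutant (log2 -1.34, adjusted p = 0.0437). ACADM, the medium-chain dehydrogenase, was lower in both (log2 -1.41 and -0.99, adjusted p = 0.00892 and 0.0258). ACADS, the short-chain dehydrogenase, was lower in the EZH2 mutant (log2 -1.05, adjusted p = 0.00966), and ETFB, an electron carrier subunit on the long arm of chromosome 19, was lower in the KMT2D mutant (-0.74, adjusted p = 0.00131). Of 4 tested acyl-CoA synthetases, only ACSL1 was called, lower in the EZH2 mutant (log2 -1.93, adjusted p = 0.0327).

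In glycerolipid synthesis and storage, 2 of 14 tested genes were higher and 1 lower in the EZH2 mutant, 1 was higher and 1 lower in the KMT2D mutant, and 3 were higher and 2 lower in the double mutant, against the same shares of all genes. PLIN3, a lipid droplet coat protein, was lower in the EZH2 mutant (log2 -0.73, adjusted p = 0.000694) and the double mutant (-0.58, adjusted p = 0.00191). AGPAT1, an acyltransferase of phosphatidic acid synthesis, was higher in both (0.55 and 0.45, adjusted p = 0.0152 and 0.0287). CHKA, the choline kinase, was higher in the EZH2 mutant (0.73, adjusted p = 0.00445). LPIN1, a phosphatidic acid phosphatase, was higher in the KMT2D mutant (log2 0.51, adjusted p = 0.0274) and lower in the double mutant (-0.53, adjusted p = 0.0161).

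Among the named genes of these lists, the calls that held under every alternative were AACS, ELOVL5, MCAT, ICMT, SEC24C, NPC2, ABCG1, PLIN3 and CHKA in the EZH2 mutant, NR1H2 and ETFB in the KMT2D mutant, and AACS, ELOVL5, FADS3, ICMT, NPC2, SCARB1, ABCG1 and PLIN3 in the double mutant. Each other call named from the lists was lost under at least 1 alternative, with adjusted p of up to 0.272. In the EZH2 mutant, leaving out replicate 1 or 2 moved the log2 value by over 1.5 times for FNTA (-1.67 to -0.49), CPT1A (-3.45 to -1.54), ACADM (-2.46 to -0.98), ACADS (-1.45 to -0.56), SCARB1 (0.36 to 0.76) and AGPAT1 (0.36 to 0.77). UBE2G2 moved to 0.36 in the EZH2 mutant and 0.27 in the double mutant without wild-type replicate 3, and LPCAT3 to 0.40 without wild-type replicate 2.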

How the data were processed

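The deposited file was a table of counts per gene, which the authors call corrected without saying for what. Per the submitters' processing notes, the tools were STAR 2.7.0f, cutadapt 1.15, Trim Galore 0.6.0, DESeq2 and FastQC, with no role given. The counting program, build, annotation and strand are not given in the sources used here. Of 12 samples, EZH2 mutant replicate 3 had no column in the table and was not analysed here. The double mutant was read from the columns marked DM.

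Counts were tested with edgeR 4.0.16 in R 4.3.3. Genes passing filterByExpr (minimum count 10) were scaled by TMM, and all 11 libraries were fitted together by the robust quasi-likelihood method, each line having its own term, with no replicate block. P-values were adjusted by Benjamini-Hochberg over all 8813 genes within each comparison, with a threshold of 0.05. Intervals on summed counts are exact, at 95%, and cover counting error only. The fit was tested on simulated data. The listed genes, the lists of other genes and the tests were chosen with earlier results of these data known. The text names all 31 genes, up to 4 called genes of each other list with the smallest adjusted p against wild type, and the 3 tested neighbours either side of genes called at 4-fold or more. SCAP and TM7SF2 in comparisons between mutants were named after their values were seen. Results for 2 genes that this rule takes are not reported here. Positions come from GENCODE v29 and promoters from RefSeq. Alternatives were RLE and upper-quartile scaling, no filter and a mean of at least 5 CPM, DESeq2 1.42.0, limma-voom (limma 3.58.1), a replicate block, only the groups compared, and each library left out. Figures used matplotlib 3.10.9.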

Additional observations from a re-analysis of the deposited data

Results flagged for a closer look

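None of the 31 genes met a rule for a closer look, and the groups, of 2 or 3 libraries, are too small to test for an outlying library. In 4 other genes named here, the interaction test of edgeR was called. It compares lines, so other differences between the lines cannot be told apart from the mutations. GSS, next to ACSS2, had an interaction of 1.48 on the log2 scale (adjusted p = 0.00448), with log2 fold changes against wild type of -1.17, -0.99 and -0.67 in the EZH2, KMT2D and double mutants. It kept its call in all 18 alternatives. ACADS had an interaction of 1.66 (adjusted p = 0.0177) and a level of 20.5 and 10.9 normalised CPM in the EZH2 mutant, 16.8, 22.2 and 18.8 in the KMT2D mutant and 25.7, 26.4 and 34.3 in the double mutant, against 35.6, 26.5 and 29.5 in wild type. Without EZH2 mutant replicate 2 or KMT2D mutant replicate 1 it was not called, with an adjusted p of up to 0.176. NR1H2, on the long arm of chromosome 19, had an interaction of 0.996 (adjusted p = 0.0347), lost in 6 of 18 alternatives. Against wild type, the median log2 fold change on that arm was 0.09, -0.72 and 0.13 in the EZH2, KMT2D and double mutants. ABCG1 had an interaction of -0.99 (adjusted p = 0.048), lost in 13 of 18.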

How the results depend on the processing

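Of the genes called against wild type, 8 of 13 in the EZH2 mutant (ACAT2, FDFT1, NSDHL, SREBF2, INSIG1, ACLY, ACSS2 and SCD) and 7 of 10 in the double mutant (IDI1, ACAT2, FDFT1, MSMO1, SREBF2, INSIG1 and ACSS2) kept direction and call under every alternative run. In the double mutant against the KMT2D mutant 8 of 12 did. The call of ACSS2 in the KMT2D mutant did not. The 1 reversal was SREBF1 in the EZH2 mutant, not called either way, which ran from -0.345 to 0.085 on the log2 scale without either EZH2 mutant library. Without a filter, 2 listed genes were called in the KMT2D mutant, 2 in the double mutant against the EZH2 mutant (381 of all genes) and 2 in the interaction (482 of all genes). DESeq2 called 0 listed genes in the KMT2D mutant, with 1 in the double mutant against the EZH2 mutant. With only the groups compared, 2 were called in the KMT2D mutant, and 92 of all genes in the double mutant against the EZH2 mutant. With the replicate number as a block, 1 was called in the double mutant against the EZH2 mutant and 1 in the interaction, SCD in both. Same-numbered libraries had correlations of -0.29 to 0.38 over 15 pairs in their deviations from the line means. Differently numbered libraries had -0.38 to 0.29 over 30 pairs. Deviations within a line offset each other, which ties these values together, so they do not decide whether the numbers pair the libraries. With 1 library left out at a time, listed genes called ranged from 9 to 14 in the EZH2 mutant, 0 to 1 in the KMT2D mutant, 8 to 10 in the double mutant, 0 to 2 in the double mutant against the EZH2 mutant, 9 to 12 against the KMT2D mutant and 0 to 1 in the interaction. Over all genes these counts were 1779 to 2874, 339 to 669, 1381 to 2052, 99 to 242, 2708 to 3370 and 147 to 309. Upper-quartile scaling moved the median of all genes to -0.203 in the EZH2 mutant, with 1015 genes higher and 1762 lower in place of 1511 and 1335. Why counts moved was not tested. With 2 EZH2 mutant libraries, 1 of them the shallowest, leaving either out assumes that the other varies like the other lines. Genes near 3 counts cannot be ranked at this depth.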
